A study of Caenorhabditis elegans with 2 samples.

Results

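The CCT chaperonin subunit genes are the 8 Caenorhabditis elegans genes cct-1 to cct-8, taken by name from 19973 protein-coding genes. Each encodes 1 subunit of the cytosolic chaperonin CCT (also called TRiC). Binding of LET-526 near these genes was measured by chromatin immunoprecipitation with sequencing (ChIP-seq) in 1 group of 2 biological replicates. The worms were strain RW12306, which carries the allele st12306, an in-frame let-526::TY1::EGFP::3xFLAG insertion made with CRISPR, and no other allele or treatment is named in the labels. They were young adults of 60 hours grown from L1 larvae synchronised by starvation after bleaching, and the chromatin of whole animals was sonicated and recovered with an antibody against GFP. LET-526 is the worm ARID1-type subunit of the SWI/SNF (BAF) complex. No control library was analysed here. Strong binding in a few cells and weak binding in many cells cannot be told apart in whole animals, and the lists hold no expression values against which the tissue could be checked.

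CCT is a barrel of 2 stacked rings, and each ring is built from 1 copy of every subunit, so all the genes are needed for the complex. It folds newly made actin and tubulin and several proteins built as WD40 propellers, in cycles driven by ATP. Prefoldin, a separate holdase, delivers unfolded actin and tubulin to it. SWI/SNF complexes move or evict nucleosomes at promoters and enhancers. Many worm transcripts are trans-spliced, so an annotated start may lie downstream of the place where transcription begins.

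The sequences at the centre of the results are the authors' peaks upstream of cct-1, cct-7 and cct-8, the members that passed the authors' reproducibility threshold. They are printed 5′ to 3′ on the strand of the CCT gene from the RefSeq WBcel235 genome (ce11 coordinates), with the 21 bases centred on the summit, the position of highest signal, in capitals. They lie at chrII:8185045-8185314 (plus strand), chrV:1871843-1872112 (plus strand) and chrIV:1094313-1094429 (minus strand).

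cct-1: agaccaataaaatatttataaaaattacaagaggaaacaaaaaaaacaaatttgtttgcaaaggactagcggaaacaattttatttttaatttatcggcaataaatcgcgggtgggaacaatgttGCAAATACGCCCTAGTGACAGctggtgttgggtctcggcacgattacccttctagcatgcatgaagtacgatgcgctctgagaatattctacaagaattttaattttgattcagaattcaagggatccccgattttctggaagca

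cct-7: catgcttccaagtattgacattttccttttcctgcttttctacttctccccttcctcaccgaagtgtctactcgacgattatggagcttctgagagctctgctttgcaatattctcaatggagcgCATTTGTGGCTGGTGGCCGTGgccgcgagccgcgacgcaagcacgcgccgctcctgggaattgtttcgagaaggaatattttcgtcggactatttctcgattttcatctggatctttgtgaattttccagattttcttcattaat

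cct-8: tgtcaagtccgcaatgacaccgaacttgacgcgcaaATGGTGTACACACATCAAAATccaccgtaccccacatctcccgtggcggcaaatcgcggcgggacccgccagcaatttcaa

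The G and C content of these peaks was 36.7% at cct-1, 46.7% at cct-7 and 55.6% at cct-8, against a median of 44.1% over the 1200 peaks of the optimal list, the authors' main list from both replicates. By these values the cct-8 peak was near the GC-rich end of that list, whose 95th percentile was 55.8%, and the cct-1 peak was on the AT-rich side. The cct-8 value is not a like comparison, because it was taken over a shorter interval than most. That interval was 117 bp. Of the 1200 optimal peaks, 1123 had the same width of 270 bp, among them those at cct-1 and cct-7. In replicate 1 the cct-8 peak was also short, at 67 bp. In replicate 2 it was 230 bp, the width of 397 of the 421 thresholded peaks of that replicate.

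Of the 8 subunit genes, 3 (cct-1, cct-7 and cct-8) had an optimal summit in the promoter window, which ran from 1000 bp upstream to 200 bp downstream of the annotated start. Of all protein-coding genes, 664 (3.32%) had one. The other 5 genes, cct-2, cct-3, cct-4, cct-5 and cct-6, had none, and no optimal summit lay in the body of any of the 8 genes. The authors' conservative list gave the same 3 genes, against 3.16% of all genes. It held the same peaks at these genes, with the same signals and summits, so it is not separate evidence. The list of replicate 1 alone also gave these 3, against 1.83% of all genes, and that of replicate 2 gave only cct-8, against 1.35%. No test of the list was made, because there was 1 group and the members were chosen with earlier results known.

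The signal of a peak is the authors' own value from peak calling. How it depends on the number of reads is not known here, so it is ranked within a list and not compared as a level between lists. At cct-8, which encodes the theta subunit (WBGene00021934, IV 1087108 to 1093920, minus strand), the signal was 237.9 in the optimal list, 125.7 in replicate 1 and 107.4 in replicate 2. When every protein-coding gene was given its strongest promoter signal, cct-8 was 38th of 13089 genes with a summit in the ranked list that holds every optimal peak. It was 47th of 9455 genes in replicate 1 and 33rd of 10012 in replicate 2. The ranked lists hold all peaks before the reproducibility threshold. In them cct-8 stood far above the other members in each replicate.

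At cct-1, which encodes the alpha subunit (WBGene00000377, II 8185443 to 8187601, plus strand), the signal was 103.5 in the optimal list, 66.2 in replicate 1 and 38.2 in replicate 2. These values placed it 300th, 246th and 603rd among genes in the same 3 ranked lists. At cct-7, which encodes the eta subunit (WBGene00020391, V 1872246 to 1875505, plus strand), the signal was 90.0 in the optimal list, 59.0 in replicate 1 and 42.4 in replicate 2, at ranks 440, 329 and 444. The order of cct-1 and cct-7 changed between replicates, with cct-1 higher in replicate 1 and cct-7 higher in replicate 2, so they did not differ beyond the spread between replicates.

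Reproducibility was given by the authors as the irreproducible discovery rate (IDR), the estimated share of peaks at that rank or better that would not repeat, with a score of up to 1000 that falls as the IDR rises. The lowest score in each thresholded list was 830, near an IDR of 0.01. In the ranked list of replicate 2, the score was 497 at cct-1 (−log10 IDR 1.20) and 506 at cct-7 (−log10 IDR 1.22), and both missed that threshold. In replicate 1 they scored 1000 and 895. The cct-8 peak scored 1000 in both replicates, with a −log10 IDR of 4.80 in replicate 1 and 4.25 in replicate 2. A score in the list of a single replicate does not measure agreement between the replicates. Which of the ranked lists from both replicates compared the replicates with each other is not stated.

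**Figure D1:**
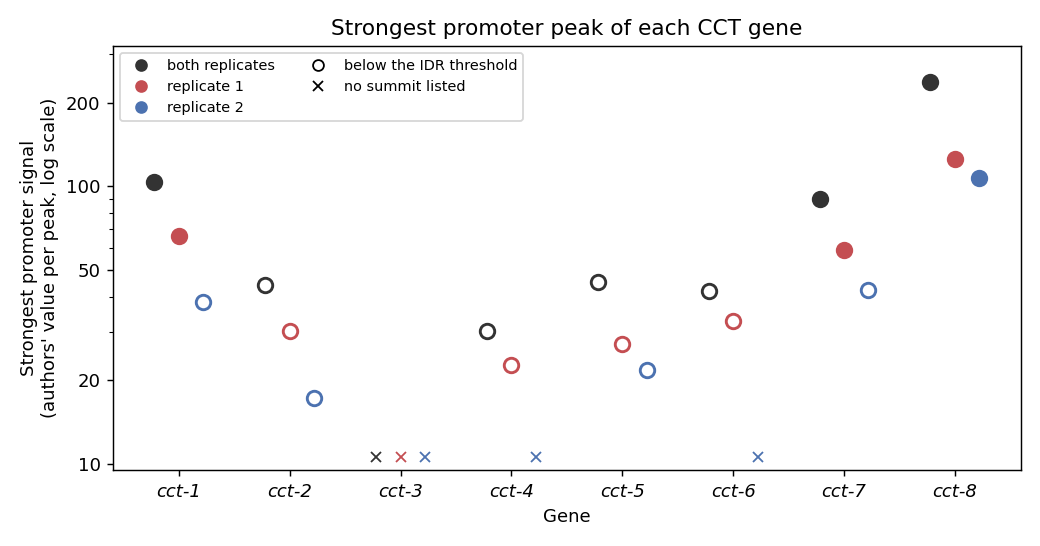
Strongest promoter signal of each CCT gene (vertical log axis, the authors' value per peak) in the ranked list from both replicates and in each replicate, with open circles for peaks below the IDR threshold and crosses for no summit listed. The cct-8 points sit at 237.9, 125.7 and 107.4, each above every other member in the same list. Replicate 2 passes the threshold at cct-8 alone.

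The summits at the 3 genes lay well upstream of the annotated starts and moved little between replicates at cct-8. The cct-8 summit was 463 bp upstream of the start in the optimal list, 462 bp in replicate 1 and 442 bp in replicate 2 (optimal summit IV 1094383). At cct-1 the summit was 263, 262 and 231 bp upstream (II 8185180). At cct-7 it was 268 bp upstream in the optimal list (V 1871978), 193 bp in replicate 1 and 276 bp in replicate 2, the widest shift between replicates of the 3 genes.

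Each of the 3 optimal summits also lay in the window of a gene on the opposite strand, and each was nearer to that gene's start. The same held in each replicate at cct-1 and cct-8, but not at cct-7, where the summit of replicate 1 was 193 bp upstream of cct-7 and 246 bp upstream of its neighbour T10B5.4. The cct-1 summit was 157 bp upstream of mig-5, which encodes a Dishevelled protein of Wnt signalling. At cct-8 the summit was 158 bp upstream of Y55F3AR.2, which RefSeq names a thioredoxin domain protein. The cct-7 summit was 171 bp upstream of T10B5.4, which RefSeq names an aralkylamine N-acetyltransferase, and 2 bp upstream of the start of the non-coding RNA gene T10B5.13, which the peak overlapped. When an optimal summit was counted only for the nearest protein-coding start, 0 of the 8 CCT genes kept one, against 2.48% of all genes. The same rule was applied to the other lists after the data were seen. It kept cct-7 in the conservative list (1 of 8, against 2.33% of all genes) and in replicate 1 (1 of 8, against 1.31%). In the conservative list this rested on a second, weak summit 53 bp upstream (signal 9.98), while the strong summit stayed nearer to T10B5.4. In replicate 2 the count was 0 of 8, against 0.946%. Of the 664 genes with an optimal promoter peak, 318 (47.9%) shared their strongest summit with the window of another protein-coding gene. All 3 CCT genes did so, but the starts of their neighbours were 420, 439 and 621 bp away. At such gaps any summit between the starts falls in both windows, so the 47.9% is not a like comparison. Which gene of each couple the binding concerns was not tested.

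All the CCT genes had an opposite-strand protein-coding start upstream, at gaps of 331 bp (cct-6 and alh-9) to 1190 bp (cct-2 and B0457.2), with a median of 540 bp. Within 1200 bp, a distance set after the gaps were known so that it covers every member, 4026 genes (20.2%) had such a neighbour. Of these, 7.1% had an optimal promoter peak, against 2.37% of the genes without such a neighbour. The 3 of 8 CCT genes therefore stand beside a higher background than that of all genes. The gap was 420 bp at cct-1, 439 bp at cct-7 and 621 bp at cct-8. Among the genes without an optimal peak, cct-4 (459 bp from nst-1) and cct-5 (741 bp from F25F2.1) had gaps of similar size, so the gap did not separate the members with a peak from those without.

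**Figure D2:**
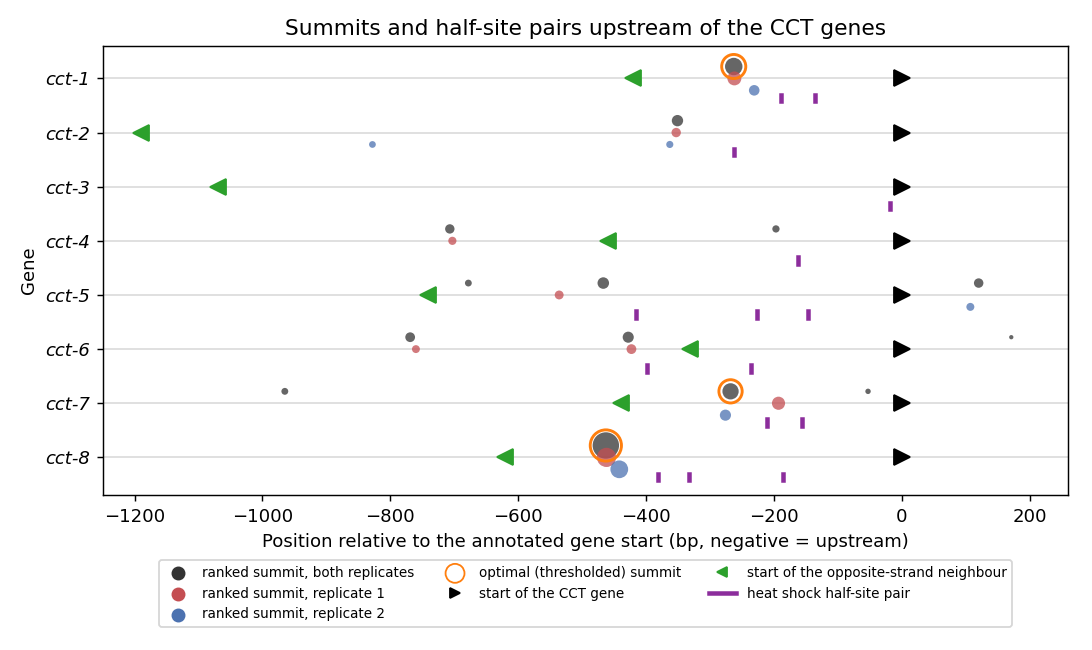
Summits in the promoter window of each CCT gene by position relative to the annotated start (horizontal axis, bp), with dot area growing with signal, orange rings for optimal summits, green triangles for the start of the opposite-strand neighbour and purple ticks for pairs of heat shock half-sites. The optimal summits at cct-1, cct-7 and cct-8 lie between the CCT start and the neighbour's start, 263, 268 and 463 bp upstream of the CCT start.

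Below the threshold, 4 of the other 5 genes had a summit in the window in the ranked list that holds every optimal peak, as they did in the ranked list that holds every conservative peak. This says little of the genes, since the same windows held a ranked summit for 65.5% and 64.2% of all protein-coding genes. In the ranked lists of single replicates, a summit lay in the window of 7 of the 8 members in replicate 1, against 47.3% of all genes, and of 5 of the 8 in replicate 2, against 50.1%. The bodies of 7 of the 8 members held a ranked summit in the list that holds every optimal peak, against 75.2% of all genes. None of the 4 genes had a ranked promoter peak with a score of 540 or more, near an IDR of 0.05.

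At cct-5, which encodes the epsilon subunit (WBGene00000380, III 4499188 to 4508114, minus strand), the strongest ranked signal was 45.4 from both replicates, 27.0 in replicate 1 and 21.7 in replicate 2. These peaks did not mark 1 place: the summit of replicate 1 was 536 bp upstream of the start and that of replicate 2 was 107 bp downstream. All of them also lay in the window of the neighbour F25F2.1. The summit from both replicates was 467 bp upstream of cct-5 but only 274 bp upstream of F25F2.1. That of replicate 1 was likewise nearer to F25F2.1, at 205 bp upstream, while that of replicate 2 was nearer to cct-5. At cct-2, which encodes the beta subunit (WBGene00000378, II 8927741 to 8929815, plus strand), the signal was 43.9 from both replicates, 30.1 in replicate 1 and 17.3 in replicate 2. Here the summits lay 353 bp upstream in replicate 1 and 363 bp upstream in replicate 2, so a weak peak was listed at nearly the same place in each. Its scores were only 39 and 36, far from the threshold. These summits also lay in the window of B0457.2, 837 and 827 bp upstream of it, and were nearer to cct-2.

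At cct-6, which encodes the zeta subunit (WBGene00000381, III 5853530 to 5855687, minus strand), the signal was 41.9 from both replicates and 32.7 in replicate 1, and replicate 2 listed no summit in the window. The strongest cct-6 summit, 428 bp upstream of its start, lay 97 bp inside the neighbour alh-9, which encodes an aldehyde dehydrogenase. Weaker cct-6 summits in the ranked list that holds every optimal peak lay 769 bp upstream (signal 32.4) and 171 bp downstream (6.2). Replicate 1 also listed a weaker one 760 bp upstream (21.3). At cct-4, which encodes the delta subunit (WBGene00000379, II 8283667 to 8285711, plus strand), the signal was 30.1 from both replicates and 22.8 in replicate 1, with no summit in replicate 2. The strongest cct-4 peak overlapped the upstream gene nst-1, which encodes a nucleostemin-type GTPase, and its summit was 707 bp upstream of cct-4. A weaker summit (signal 18.0) in the ranked list that holds every optimal peak lay 197 bp upstream of cct-4. It lay between the genes and also in the nst-1 window.

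Among all 13089 genes with a ranked summit, the median of the strongest promoter signal was 33.8. By rank, cct-5 was 3092nd, cct-2 was 3394th, cct-6 was 3914th and cct-4 was 7982nd. The order of cct-2, cct-5 and cct-6 changed between replicates, where cct-6 led in replicate 1 (ranks 1667, 2104 and 2951 for cct-6, cct-2 and cct-5) and cct-5 led in replicate 2 (rank 3765, against 6330 for cct-2). These 3 could not be put in order beyond the spread between replicates. None of them reached cct-1 or cct-7 in either replicate.

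**Figure D3:**
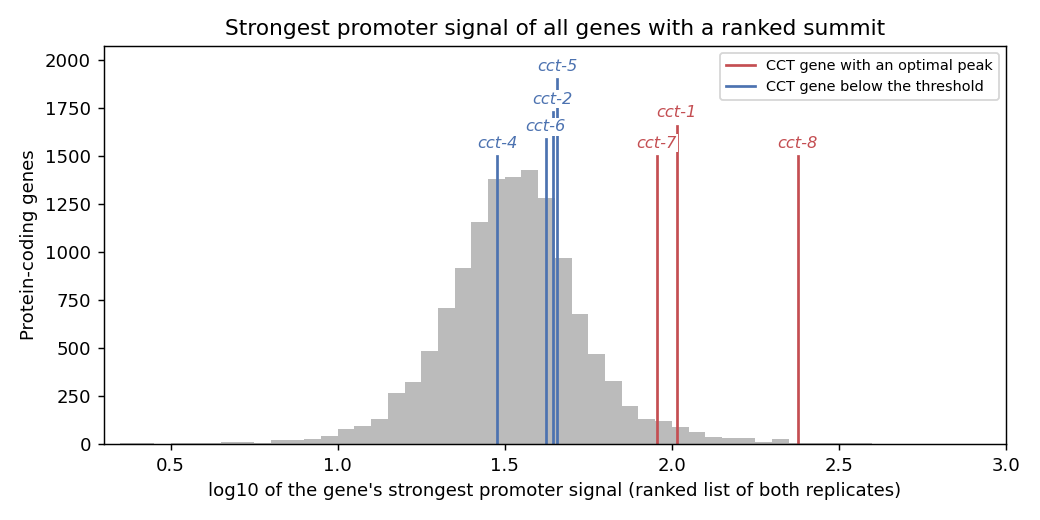
Number of protein-coding genes (vertical axis) by log10 of their strongest promoter signal in the ranked list that holds every optimal peak (horizontal axis), with lines at the CCT genes. The lines of cct-2, cct-4, cct-5 and cct-6 (signals 30.1 to 45.4) stand within the bulk of the genes, and those of cct-7, cct-1 and cct-8 (90.0 to 237.9) stand in the upper tail.

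The remaining member, cct-3, which encodes the gamma subunit (WBGene00018782, II 2233540 to 2243539, plus strand), had no summit in any of the 8 peak lists, neither in the promoter window nor in its 10000 bp body. Its start lay in a stretch without any listed peak. This stretch was 23805 bp long in the ranked list that holds every optimal peak, 27536 bp in the one that holds every conservative peak, 29881 bp in replicate 1 and 28676 bp in replicate 2. Neighbouring summits were 740 bp apart at the median in the first of these lists, and 0.176% of its gaps were as long. In the other 3 lists, 0.119 to 0.126% of gaps were as long. A gene start falls more readily in a long gap than in a short one, so these are shares of gaps and not of genes. Of all protein-coding genes, 8.04% had no ranked summit in window or body in any of the 4 ranked lists, as did 2.81% of the 998 genes at least as long as cct-3. Whether reads could be placed in this stretch was not tested, since the files hold peaks and no coverage.

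Within 30 kb on either side of its start, cct-3 had 37 ranked summits in the list that holds every optimal peak, where the median gene had 50. The fewest among the members in that list was at cct-1, with 20 summits (2.73% of genes had as few). In replicate 1 the fewest was at cct-3, with 12 against 17 at cct-1. In replicate 2 cct-1 again had the fewest, with 11 against 20 at cct-3. The cct-1 peak therefore stood in thinly listed surroundings. The most was at cct-6, with 71 summits (97.0% of genes had as many or fewer), although cct-6 had no thresholded peak.

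**Figure D4:**
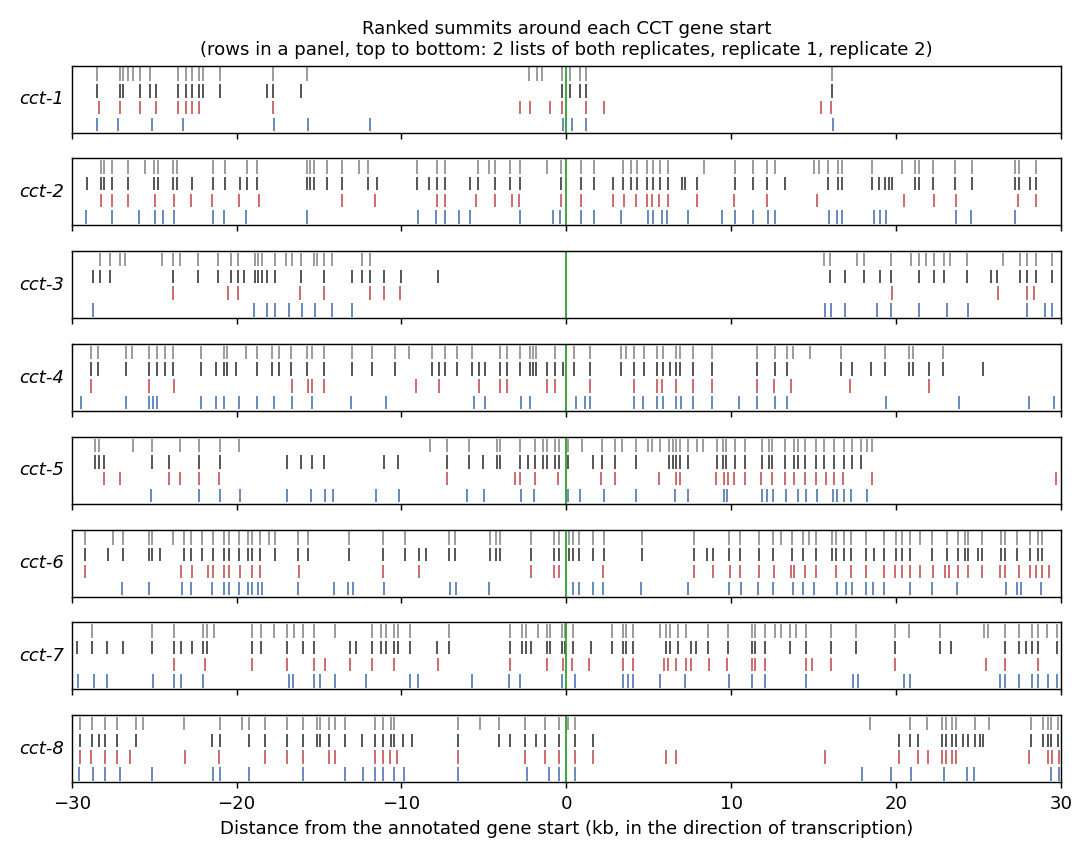
Ranked summits within 30 kb of each CCT gene start (horizontal axis, kb in the direction of transcription), with 1 tick per summit and 4 lists stacked in each panel. The cct-3 panel is empty around the start in every list, over 23805 to 29881 bp, and the cct-1 panel is sparse, with 20 summits in the list that holds every optimal peak.

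A sequence feature that the choice of the genes did not use was common in their promoters. Heat shock factor binds repeats of a short half-site, GAA or its complement TTC, in alternating orientation. Pairs of half-sites with 2 bases between them, GAANNTTC or TTCNNGAA, were searched on both strands from 250 bp upstream to 50 bp downstream of the start. Each reads the same on either strand, and the pairs can overlap in longer repeats. One or the other was found in 7 of the 8 CCT promoters, all but cct-2, compared with 32.5% of all 19973 promoters of the same length and 35.1% of the 664 genes with an optimal promoter peak. Each pair alone was found in 5 of the 8, against 18.5% (GAANNTTC) and 18.9% (TTCNNGAA) of all promoters. A search up to 500 bp upstream found a pair at all 8, with cct-2 added, against 52.1% of all promoters. No CCT promoter held 3 alternating half-sites, which 1.97% of all promoters held. The count over either pair and the search for 3 half-sites were chosen after the data were seen.

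The pair nearest to each start is printed with 11 bases on either side, 5′ to 3′ on the strand of the gene and with the pair in capitals. The half-sites in capitals were set by the search, so their likeness is not a result. Positions are those of the first base of the pair relative to the start.

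cct-1: gatccccgattTTCTGGAAgcatttttatt

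cct-2: atattttgagtTTCGAGAAggattttccct

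cct-3: aggtgttccttGAAAATTCccccaaatttc

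cct-4: agctatagaatTTCTAGAAgaattattatt

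cct-5: tcattcctcgaGAATATTCtgcgggtttga

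cct-6: gcgaatttattTTCTAGAAtaaattcaaac

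cct-7: tggatctttgtGAATTTTCcagattttctt

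cct-8: tttgtcatcgtGAAGTTTCtcaaagtgaat

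The sites lay at −139 (cct-1), −266 (cct-2), −22 (cct-3), −166 (cct-4), −150 (cct-5), −239 (cct-6), −159 (cct-7) and −189 (cct-8). The cct-4 and cct-6 sites carried the same 8 bases, of which the search left only the 2 between the half-sites free. Within 150 bp on each side of the optimal summits, the pair nearest to the summit began 71 bp from it at cct-1, 54 bp at cct-7 and 78 bp at cct-8, in each case towards the CCT start. At cct-1 and cct-7, 2 pairs lay inside the optimal peak printed above. At cct-8 none of its 3 pairs did. The genes without a thresholded peak held pairs as well, so the pairs did not separate the members by binding, and a match is not evidence that a factor was bound.

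Of the other motifs searched in the shorter window on both strands, the E2F-type sequences GCGGGAA and GCGCGAA, the repeat GAGAGA and the E-box CACGTG were found in 0 of the 8 promoters, against 3.22%, 1.92%, 21.8% and 5.82% of all promoters. The TATA-type sequence TATAAA was found in 2 of the 8, cct-2 and cct-8, against 37.9%. A missing match says only that these letters are not in the window searched.

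Prefoldin genes, client genes of CCT (actin, tubulin and WD40 proteins) and the separate chaperonin of mitochondria were taken as lists, to be read against the same 3.32% of all genes. Of 6 prefoldin genes, 1 had an optimal promoter peak, pfd-4 (signal 93.9), which passed the threshold in neither replicate alone and whose ranked signals were 53.3 in replicate 1 and 38.5 in replicate 2. Its summit also lay in the windows of the protein-coding genes B0035.3 and B0035.22. The mitochondrial chaperonin gene hsp-60, which encodes an Hsp60 that folds proteins imported into mitochondria, had a signal of 179.0, with 90.6 in replicate 1 and 82.4 in replicate 2, and passed in each. The hsp-60 summit, 619 bp upstream, also lay in the window of Y22D7AL.10, which RefSeq names the mitochondrial 10 kDa heat shock protein, the partner of Hsp60.

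Of 16 tubulin genes, 4 had an optimal promoter peak. They were the beta tubulin gene tbb-1 (signal 159.0, with 82.4 in replicate 1 and 75.9 in replicate 2), the alpha tubulin genes tba-2 (125.3, with 79.8 and 37.5) and tba-1 (100.7, with 62.7 and 30.1), and the gamma tubulin gene tbg-1 (94.4, with 66.2 and 26.5). The tbg-1 summit lay 830 bp upstream of its start, and tbg-1 had no peak in the conservative list, which gave 3 of the 16. As with the CCT genes, replicate 1 alone passed all 4 and replicate 2 alone passed 1, tbb-1. The tbb-1 summit also lay in the window of rib-2, the tba-1 summit in that of cox-5B and the tbg-1 summit in that of rpac-19, while the tba-2 summit lay in no other protein-coding window. None of 5 actin genes and none of 5 WD40 client genes had an optimal promoter peak, and the strongest ranked signals in these lists were 68.0 at act-3 and 60.5 at fzr-1.

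The genes whose signals in both replicates were most like those of cct-8 were found by distance on the log10 scale over 652 other genes with an optimal promoter peak and a ranked summit in each replicate. The nearest was Y55F3AR.2, at a distance of 0 because it shares the cct-8 peak. Next were rps-12, a ribosomal protein gene, and ska-3, a kinetochore protein gene, which share a peak with signals of 128.7 in replicate 1 and 109.4 in replicate 2, at a distance of 0.0129. The likeness rests on 2 samples.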

How the data were processed

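The authors deposited peak lists on the ce11 assembly for each replicate and for both together, per the sample notes among the files. The deposited signal is the peak caller's value and the deposited score reflects the IDR, which the ranked lists also give as −log10, as deposited by the authors. No label, file or note used here names the software for alignment or peak calling. Read numbers are absent from peak lists, which leaves the depth of both libraries unknown.

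Summits were compared with Ensembl release 115 gene starts (WBcel235, whose chromosomes all extend past the last peak) in Python 3.11.15 with pandas 2.3.3. Sequence came from the RefSeq WBcel235 genome. The optimal list held 1200 peaks, the conservative list 1077, and the lists of replicates 1 and 2 held 585 and 421. The ranked lists held 81275, 78700, 46104 and 49296. The assignment of summits to windows was tested on simulated data. Results are counts and ranks with no p-value, since there was 1 group. Members, lists and motifs were chosen with earlier results of these data known. Named genes were the CCT genes, genes sharing their summits, listed genes with an optimal promoter peak, and the 3 genes most like cct-8. The values of act-3 and fzr-1, and the neighbours of cct-2, cct-4, cct-5 and cct-6, were named after they were seen.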

Additional observations from a re-analysis of the deposited data

How the results depend on the processing

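No paired analysis was possible because there was 1 group. The count of 3 CCT genes with an optimal promoter peak (3.32% of all genes) was also 3 in the conservative list (3.16%), with windows of 500 bp upstream to 100 bp downstream (2.48%) or 2000 to 500 bp (4.72%), with overlap of 1 bp in place of the summit (3.57%), and with the start of any transcript (3.72%). It was 2 for peaks above the median signal of 92.3 (2.09%), which left out cct-7. It was 1 to 3 when a replicate was left out, with 1 (cct-8) without replicate 1. It was 0 when a summit counted only for the nearest protein-coding start, and 0 for the nearest start of any gene type, which was added after seeing the data. By the nearest protein-coding start it was 1 (cct-7) in the conservative list, 1 (cct-7) in replicate 1 and 0 in replicate 2. These counts were also added after seeing the data, and that of the conservative list rested on the weak summit 53 bp upstream. The signals of these genes in single replicates are not compared as levels with those of the list from both. They ran from 38.2 to 66.2 at cct-1, 42.4 to 59.0 at cct-7 and 107.4 to 125.7 at cct-8. Without 1 replicate, summit positions ranged from −262 to −231 bp at cct-1, −276 to −193 bp at cct-7 and −462 to −442 bp at cct-8. Of the members below the threshold, 4 had a ranked summit, 2 to 4 without 1 replicate, and 0 at a score of 540 or more. Without 1 replicate, prefoldin genes with a peak numbered 0 in either case (pfd-4 was lost) and tubulin genes 1 to 4. The windows of 150 bp on each side of the optimal summits cover 3 genes in place of 8, so GAANNTTC was found in 3 (15.8% of 1200 summit windows), TTCNNGAA in 2 (13.9%), either pair in 3 (24.6%) and TATAAA in 1 (19.8%). TATAAA was found in 5 of the 8 with the window up to 500 bp upstream, against 56.0% of all promoters. The other 42 values kept within 1.5 times the main count or within the spread between replicates. Some of these are not separate checks. The signals at cct-1, cct-7 and cct-8 in the conservative list, and at the optimal summit nearest to the start, come from the same peaks as the main values. The 42 also include the tubulin genes in the conservative list, which numbered 3 because tbg-1 was missing there. The unknown depth of each library limits what a missing peak shows: a gene without a listed peak was not detected, not shown to be unbound.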

Other observations

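The strongest ranked signals within the bodies of the CCT genes, in the list that holds every optimal peak, were 46.8 at cct-5, 42.7 at cct-4, 42.5 at cct-7, 42.4 at cct-2, 41.7 at cct-8, 39.0 at cct-1 and 32.6 at cct-6. At cct-4 and cct-5, and at none of the other members in that list, the body held a stronger signal than the promoter window, which had 30.1 and 45.4. The replicates differed in this: at cct-5 in replicate 1 the body had 26.8 and the window 27.0, and at cct-2 in replicate 2 the body had 26.5 and the window 17.3. In replicate 2 the cct-6 body had 13.8, with no summit in its window. The long cct-5 body held 10 summits in that list, 5 in replicate 1 and 6 in replicate 2.

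The optimal peaks of cct-1 and cct-7 shared the run TGAGAATATT, read on the strand of the gene at cct-1 and on the opposite strand at cct-7, which 3 of the 1200 optimal peaks (0.25%) and 0.365% of all promoters held. Those of cct-1 and cct-8 shared AAATCGCGG, found in 6 optimal peaks (0.5%) and 0.185% of promoters. The longest run common to cct-7 and cct-8 was CACCGAA, of 7 bases, found in 3.08% of optimal peaks and 3.02% of promoters. These runs were picked from the printed sequences as the longest in common, so their rarity follows in part from the choice.

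A second peak at cct-7 was in the conservative list and not in the optimal one. Its summit was 53 bp upstream of the start, with a signal of 9.98 but a score of 1000, equal to that of the strong peak beside it. In the ranked list that holds every optimal peak, the same summit scored 67.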
